A study of Mus musculus with 6 samples.

Results

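EPC_Late, a high-passage mouse cell line harvested at passage 16 to 20, was compared with EPC_acLDL, an early line harvested at passage 3 to 6 from cells that had taken up fluorescent acetylated low density lipoprotein (acLDL) and were sorted for it. A probe was included where its detection p-value, which gives how often a negative control probe matches or exceeds its brightness, was below 0.05 on both arrays of at least 1 of these lines. Of the 25697 probes on the array, which stand for 17916 genes, 2264 probes of 2063 genes met this rule. At its edge, 28 probes entered with a deciding detection p-value of 0.04887, at intensities of 385 to 546, and 12 stayed out at 0.05013, at 404 to 509.5.

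Arrays of EPC, the unselected early line at passage 3 to 6, are shown beside them, and each of the 3 lines has 2 arrays. All lines came from lung of athymic nude mice, as cells sorted by surface antigens that included Flk-1, an endothelial receptor, as a positive and CD45, a blood cell antigen, as a negative, and all grew in the same endothelial medium with serum. By the study's own account EPC_Late was the EPC_acLDL line kept to high passage, so both lines had gone through the acLDL sort. Passage number and anything else that changed during that time in culture cannot be told apart. The study's methods tell of 2 independent experiments in duplicate, while a figure legend gives 3 samples each in duplicate. These statements differ, so the sources do not settle whether the 2 arrays of a line come from separate cultures. The p-values therefore measure only the spread between arrays, which may be technical.

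Endothelial progenitor cells are cells held to be able to give rise to the endothelium that lines blood vessels, and they are often recognised by surface antigens together with uptake of acLDL, which scavenger receptors carry into the cell. Cells kept for many passages can change in growth, in shape and in the programmes that respond to stress. The genes are described here by function, in the order of nutrient stress, interferon, cell division, RNA processing, translation and cell structure.

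Between 2229 and 2365 probes per array lay above background on the 4 arrays of these lines, and the median intensity was 305 to 359. The replicate arrays had a Pearson correlation of 0.992 for EPC_acLDL and 0.99 for EPC_Late across probes, which are not independent replicates. Of 22 endothelial marker genes on the array, 20 were above background on none of the 4 arrays, among them Pecam1, Cdh5 and Cd34, and the haematopoietic marker Ptprc (CD45) was not above background either. Kdr, which encodes Flk-1, was above background on all 4, and Cd93 was the other endothelial marker that was. Of 20 genes that most cells use, a list made after the values were seen, 8 had a probe above background on all 6 arrays and 12, including Gapdh, B2m, Vim and Pgk1, had none on any array. A probe that is not above background therefore cannot be read as an absent transcript here. Whether the gene names of the array annotation fit what the detected probes measured was not tested either. Of the 1049 genes with several probes and at least 1 above background by the rule, 59 had all their probes included.

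Directions follow the labels of the arrays, and they oppose the study's. For most of the genes that the study lists for this comparison and that were above background here, among them Shisa3, E2f1, Tyms and Srsf1, its text gives the other direction, and most directions are opposite in both comparisons with EPC too. Serbp1 is an exception, lower in EPC_Late both here and in the study's list. Which line was the higher one is therefore not settled, and every "higher" and "lower" holds for the lines as labelled. Whether labels were exchanged was not tested.

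Of the 2264 probes, 483 (21.3%) differed between EPC_Late and EPC_acLDL at an adjusted p below 0.05 in the limma fit, 218 higher and 265 lower in EPC_Late. Over all 2333 probes tested, 20.9% were called, 9.34% higher and 11.5% lower. The split depends on the scaling. A shift of each array to its 75th percentile gave 131 higher and 365 lower, and no normalization between arrays gave 129 and 392. Raising low values to 1 before that shift gave 109 and 409. The median difference over all probes tested was 0.00 after quantile normalization and moved to -0.15, -0.16 and -0.10 on the log2 scale under these settings. The count also depended on single arrays: it was 203 and 223 without the first and the second EPC_acLDL array, and 276 and 307 without the first and the second EPC_Late array. Without the first or the second EPC array it was 455. No probe called both with all arrays after quantile normalization and under one of these changed sign.

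The line means were at least 2-fold apart for 172 probes, 77 higher and 95 lower in EPC_Late, where 7.42% of all probes tested were. The ranges of both lines were separate for 59.4% of the included probes and 58.6% of all probes tested. The median SD between replicate arrays was 0.11 in EPC_Late and 0.10 in EPC_acLDL on the log2 scale, and the smallest difference called was 0.41. Of the 152 called probes named below, 83 kept the call under every alternative limma fit, 69 lost it without at least 1 array, and 1 changed direction in any fit. In bulk RNA of a culture, fewer cells of a kind and less RNA per cell cannot be told apart.

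**Figure D1:**
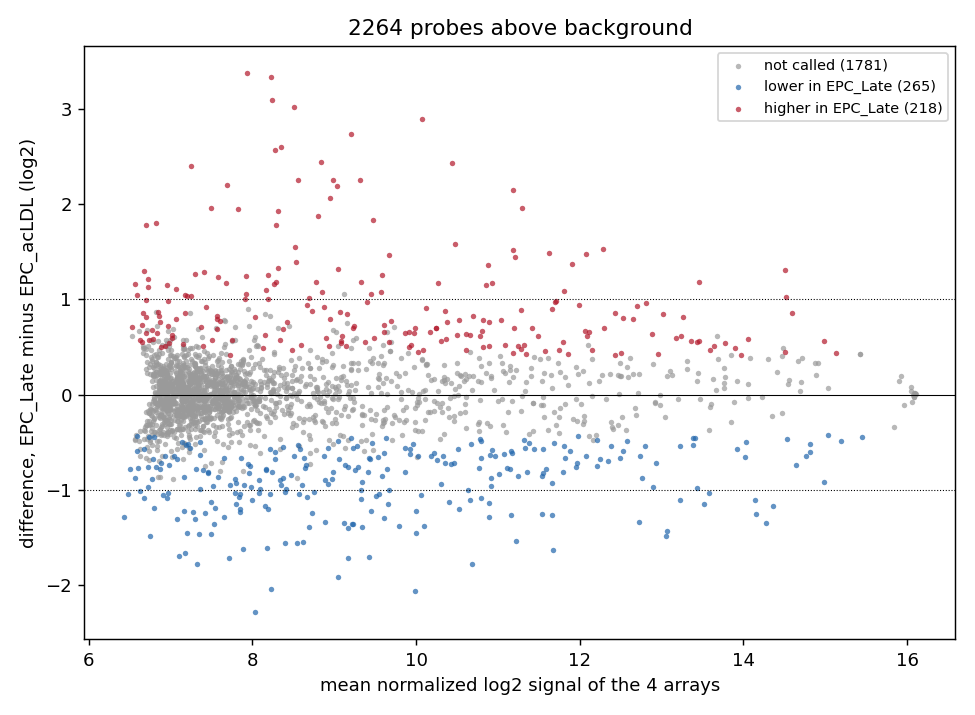
Difference between EPC_Late and EPC_acLDL (vertical, log2) against the mean normalized log2 signal of their 4 arrays (horizontal), 1 point per probe. Red points are the 218 probes called higher in EPC_Late, blue points the 265 called lower, grey points were not called, and dotted lines mark a 2-fold difference.

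Most included probes, 1817, were above background on both arrays of both lines, and 173 of these were higher and 220 lower in EPC_Late. Another 71 were above background on both EPC_Late arrays and on neither EPC_acLDL array, and the reverse held for 87. These probes were included through the line where they are bright, so the direction of the 35 calls among the former and the 34 among the latter was fixed by the rule, and the calls are only a description. The same holds for probes above background on both arrays of one line and on 1 of the other. The lists below hold such probes, so for many of them the counts are also given over the probes above background on all 4 arrays. For probes seen in one line alone the fold is a bound: the mean of the brighter line is set against the dimmer line, taken at its own signal or at the dimmest signal above background, whichever is greater.

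Among the probes above background on all 4 arrays, the largest increases included those of Shisa3, Nnmt and Hbp1. Shisa3, which encodes a membrane protein that restrains Wnt and FGF receptors, read 444 and 499 in EPC_acLDL against 1338 and 1307 in EPC_Late. Its difference was 3.02 on the log2 scale (SE 0.13, n = 2 arrays per line, limma adjusted p = 0.00018), and the lines did not overlap. Nnmt, the enzyme that methylates nicotinamide, read 438 and 518 in EPC_acLDL and 1117 and 1158 in EPC_Late, a difference of 2.61 (SE 0.16). Hbp1, a transcription factor that restrains cell cycle entry, read 451 and 489.9 in EPC_acLDL and 1028 and 1157 in EPC_Late, a difference of 2.57 (SE 0.13). For each of these genes, both EPC_Late arrays were brighter than both EPC_acLDL arrays by more than the replicates differed. Thra, a thyroid hormone receptor, rose by 2.25 (SE 0.26), and Tmem150a, a membrane protein gene, by 2.26 (SE 0.19). Gm8909, named EG667977 in the file, rose by 2.74 (SE 0.12).

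Bounds gave 6 further increases. Mxi1, a partner of Max that opposes Myc at DNA, read 392 and 456 in EPC_acLDL, not above background, and 1179 and 1328 in EPC_Late, at least 8.77-fold higher in EPC_Late. Fam155a, named AW121567 in the file, was at least 8.15-fold higher, the unnamed locus LOC100047937 at least 7.26-fold and LOC100047173 at least 4.09-fold. Pcdha6, a protocadherin, was at least 3.23-fold higher, and Tef, a circadian-output transcription factor, at least 1.95-fold. On the EPC arrays Mxi1 read 364 and 361, also not above background. Mxi1 was the single called probe of 3 in the Myc-Max network, and none was called of the 2 above background on all 4 arrays.

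The largest decreases included those of probes for RNA-processing proteins and tubulins, given with their lists below, of Zfp326 and Cpsf6, and of Efnb1 and Nrg1. Efnb1, a membrane ligand of Eph receptors, read 3722 and 3608 in EPC_acLDL and 1167 and 1241 in EPC_Late, and the difference was -1.78 (SE 0.12, n = 2 arrays per line, limma adjusted p = 0.00054). EPC read 1106 and 1223 for Efnb1, which overlaps EPC_Late, so that EPC_acLDL was the line apart. Nrg1, a ligand of ErbB receptors, had the same order, with 554 and 585 in EPC, 1032 and 899.8 in EPC_acLDL and 543 and 563 in EPC_Late, a difference of -1.56 (SE 0.14) between the last lines. Zfp326, which encodes a protein that couples splicing to transcription, was lower on both of its probes, by differences of -1.70 (SE 0.11) and -1.72 (SE 0.11). Cpsf6, a subunit of the factor that cleaves transcripts before polyadenylation, differed by -1.56 (SE 0.18) and Rad54l, a recombination repair enzyme, by -1.55 (SE 0.12).

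By the bound, Cavin3, a coat protein of caveolae, was at least 2.66-fold lower in EPC_Late, with 642 and 674 in EPC_acLDL and 425 and 427 in EPC_Late. Also lower were 1110038F14Rik, at least 2.43-fold, and Gtse1, a regulator of p53 in the G2 and S phases, at least 2.32-fold. Pafah1b1, a dynein regulator, was at least 2.22-fold lower, LOC100044221 at least 2.18-fold and Gm44505, named ZFP91-CNTF in the file, at least 2.14-fold. LOC100044221 read 1189 and 1054 in EPC, 567 and 633 in EPC_acLDL and 418 and 442 in EPC_Late, which gave 3 levels that did not overlap. 1110038F14Rik lost its call without the first EPC_acLDL array or the first EPC_Late array, and Gm44505 without the second EPC_acLDL array.

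**Figure D2:**
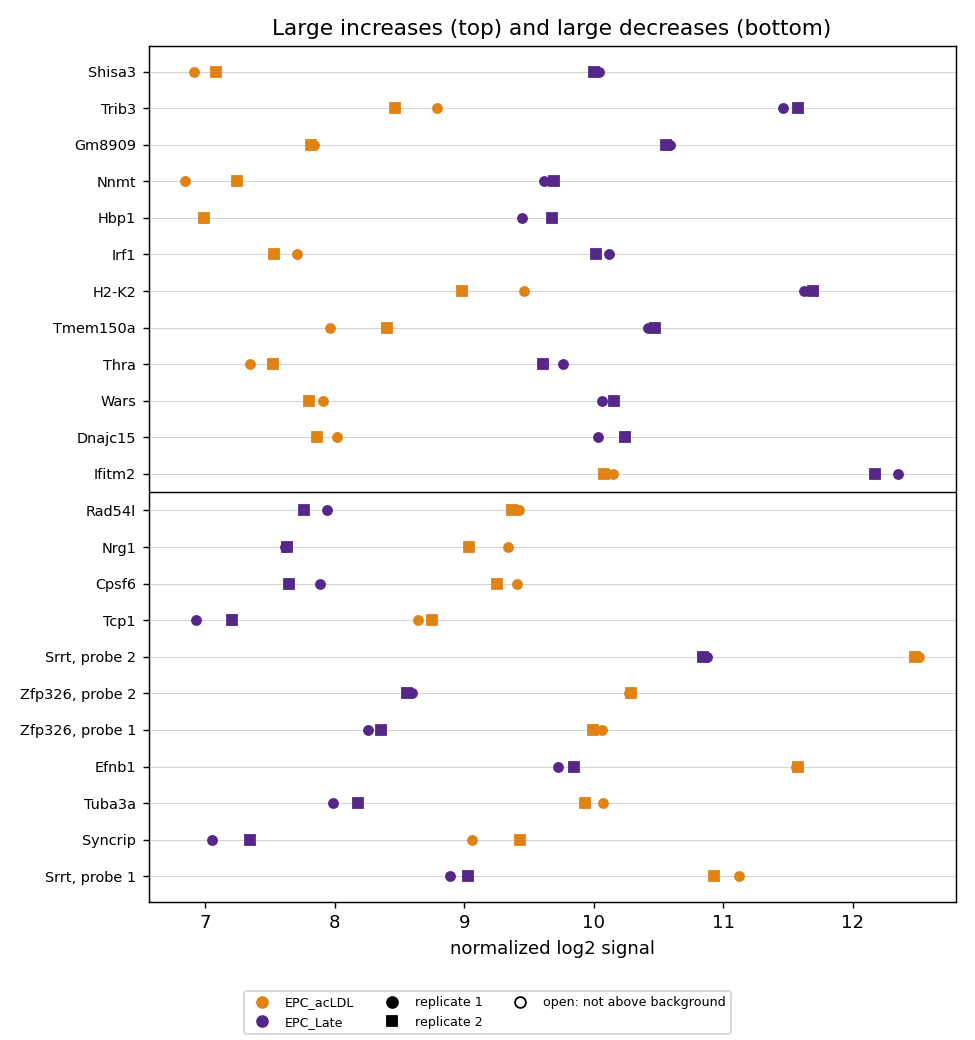
Normalized log2 signal (horizontal) of each EPC_acLDL array (orange) and EPC_Late array (purple) for probes among those that rose most (top 12 rows) or fell most (bottom 11 rows) in EPC_Late, all of them above background on the 4 arrays. Circles are replicate 1 and squares replicate 2, and in each row the points of one line lie apart from those of the other.

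Genes of the amino acid response moved in both directions. When amino acids or the folding capacity of the endoplasmic reticulum run short, cells slow translation and raise the transcription factor ATF4 and its targets, which include Trib3, a pseudokinase, Ddit3, a transcription factor also called CHOP, and many genes for loading transfer RNAs. Of 13 probes in this list, 7 were higher and 3 lower in EPC_Late, with a median difference of 0.59 against 0.00 for all probes tested. The share called was 76.9%, against 20.9% of all probes tested. Over the 12 above background on all 4 arrays, 6 were higher and 3 lower, with a median of 0.48. The count of higher probes was 5 to 7 and that of lower probes 3 over the alternative limma fits that kept both arrays of these lines. Some calls in both directions were lost when 1 array was left out, as given for single genes below. With the methods' t-test the counts were 6 and 1 unadjusted, and 0 and 0 after adjustment.

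Trib3 read 816 and 736 in EPC_acLDL, 3149.8 and 3451 in EPC_Late, and 708 and 743 in EPC. The difference between EPC_Late and EPC_acLDL was 2.89 (SE 0.14, n = 2 arrays per line, limma adjusted p = 0.00025). Ddit3 read 431 and 481 in EPC_acLDL, 730 and 882 in EPC_Late, and 484 and 509.8 in EPC, a difference of 1.95 (SE 0.16). Both EPC_Late arrays lay above the other 4 for each of these genes. Wars, the synthetase for tryptophan, which interferon also induces, rose on both probes, by 2.25 (SE 0.11) and 1.93 (SE 0.20). Smaller increases were those of Shmt2 and Phgdh, enzymes of serine and glycine metabolism, at 0.81 (SE 0.11) and 0.60 (SE 0.14), and of Mars1, the methionine synthetase, at 0.59 (SE 0.12). Phgdh was not above background on either EPC_acLDL array and was at least 1.46-fold higher. Its call was lost without either EPC_acLDL array or without the second EPC_Late array, with differences of 0.47 to 0.72 over all left-out arrays. Mars1 lost its call under each scaling that replaced quantile normalization and without any 1 array of the 2 lines, with differences of 0.52 to 0.66.

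The 3 lower probes were synthetases: Kars, for lysine, at -1.17 (SE 0.21), Vars, for valine, at -0.82 (SE 0.16), and Farsb, a subunit of the phenylalanine enzyme, at -0.54 (SE 0.11). Kars read 741 and 865 in EPC_acLDL, 510.4 and 583 in EPC_Late and 877 and 1006 in EPC. Farsb lost its call when any 1 array of EPC_Late or EPC_acLDL was left out, with differences of -0.58 to -0.50. Vars lost it without the first EPC_acLDL array or either EPC_Late array, with differences of -1.03 to -0.61 over all left-out arrays, and Kars without the second EPC_acLDL array or the first EPC_Late array, with differences of -1.40 to -0.95. Slc38a2, a transporter of small neutral amino acids that ATF4 also raises, was higher on 1 of 3 probes, at 0.80 (SE 0.13), and the others gave -0.06 (SE 0.17) and -0.22 (SE 0.11). The call was lost without the first array of either line. Among solute carriers as a whole, 2 of 34 probes were higher and 1 was lower, 8.82% called against 20.9% of all probes tested. Over the 26 above background on all 4 arrays, 2 were higher and none lower.

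The promoter of Trib3 is printed because this gene had the largest difference in the list and its window held the letters searched for. The window of 300 bases around the annotated start, most of it upstream, is from RefSeq on GRCm38.p6, chr2:152344011-152344310, minus strand, written 5′ to 3′ along the gene. Capitals mark the match to TGATGNAA, the core of an amino acid response element, read on the other strand, at bases 265 to 272 counted from 1 at the left.
Trib3: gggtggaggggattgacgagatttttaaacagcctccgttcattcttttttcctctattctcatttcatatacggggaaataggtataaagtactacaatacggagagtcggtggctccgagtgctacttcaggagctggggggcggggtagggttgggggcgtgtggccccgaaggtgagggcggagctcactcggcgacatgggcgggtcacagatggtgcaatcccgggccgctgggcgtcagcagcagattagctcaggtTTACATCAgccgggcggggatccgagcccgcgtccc

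That pattern was one of 4 searched on both strands, all chosen after the values were seen, in the called genes of 3 lists. TGATGNAA occurred in 3.97% of all 32851 windows and, among the 7 called genes of the amino acid list that had a window, in Trib3 alone (1 of 7). It was in none of the 4 windowed genes of the interferon list and none of the 6 of the cell cycle list. A match is a string of letters and no evidence of binding.

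Interferons act through STAT proteins on genes for antiviral defence and for presenting peptides on class I molecules, and Irf1 is a transcription factor near the start of that response. Of 13 probes in the list, 6 were higher in EPC_Late and none lower in the limma fit, and no further probe had an unadjusted p below 0.05. That is 46.2% called against 20.9% of all probes tested. The median difference of the list was 0.14, and it lay between -0.03 and 2.15 over the alternatives. Over the 9 probes above background on all 4 arrays, 4 were higher and none lower, with the same median. Psmb8 and Ifi35 entered through EPC_Late, which fixed their direction.

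Irf1 rose on both probes, with 549 and 551 in EPC_acLDL and 1399.9 and 1322 in EPC_Late on the first and 602 and 583 against 1119.97 and 1242 on the second. The differences were 2.45 (SE 0.18, n = 2 arrays per line, limma adjusted p = 0.00063) and 1.88 (SE 0.21, adjusted p = 0.0021). H2-K2, a class I histocompatibility gene named EG630499 in the file, read 1105 and 880.4 in EPC_acLDL and 3484 and 3618 in EPC_Late, a difference of 2.44 (SE 0.17). Class I genes are near copies of each other, so the probe's gene is uncertain. Ifitm2, a membrane protein that hinders viral entry, read 1619 and 1522 in EPC_acLDL, 5257 and 4781 in EPC_Late and 1032 and 1073 in EPC, and differed by 2.15 (SE 0.12). In all of these the EPC_Late arrays lay above the other 4.

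Ifi35, an interferon-induced protein gene, differed by 1.96 (SE 0.18), with 1 EPC_acLDL array not above background. Psmb8, the immunoproteasome subunit, differed by 0.57 (SE 0.13) and was at least 1.20-fold higher, since neither EPC_acLDL array was above background. Its call was lost under 8 of 15 alternatives, among them each scaling that replaced quantile normalization, and without the second EPC_acLDL array or either EPC_Late array, with differences of 0.42 to 0.72 over all left-out arrays. The other 7 probes, which include further histocompatibility genes, lay between -0.12 and 0.14 and were not called.

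A pair of windows is printed for this list, since both genes rose and each held one of the interferon patterns. In Irf1 (chr11:53769764-53770063, plus strand) the capitals mark TTCNNNGAA, the interferon gamma activated site, at bases 161 to 169. In Ifitm2 (chr7:140955912-140956211, minus strand) they mark the core of the interferon stimulated response element (GAAA, any 2 bases, GAAA) at bases 205 to 214. Both are RefSeq windows on GRCm38.p6, written along the gene.
Irf1: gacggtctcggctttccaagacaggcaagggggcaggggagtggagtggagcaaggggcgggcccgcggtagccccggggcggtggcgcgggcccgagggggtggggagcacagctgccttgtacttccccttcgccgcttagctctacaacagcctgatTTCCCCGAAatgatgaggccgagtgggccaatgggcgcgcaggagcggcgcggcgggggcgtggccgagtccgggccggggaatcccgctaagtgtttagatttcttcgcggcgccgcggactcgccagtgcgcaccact
Ifitm2: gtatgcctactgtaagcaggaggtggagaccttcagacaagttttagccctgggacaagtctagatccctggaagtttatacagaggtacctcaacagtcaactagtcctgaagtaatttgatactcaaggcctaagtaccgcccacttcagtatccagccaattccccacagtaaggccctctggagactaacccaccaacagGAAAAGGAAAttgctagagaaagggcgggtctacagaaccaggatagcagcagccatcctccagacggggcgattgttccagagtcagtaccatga

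TTCNNNGAA occurred in 8.3% of all windows and in 3 of the 4 windowed genes of this list, Irf1, Ifi35 and Psmb8. The same pattern was in 2 of 7 genes of the amino acid list, Shmt2 and Kars, and in 1 of 6 of the cell cycle list, Cdc45. The core of the interferon stimulated response element occurred in 3.44% of windows and in 1 of 4 genes here, 0 of 7 and 0 of 6 in the others. These few genes allow no test of a difference from all windows.

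Of 11 probes in the list of cell cycle and DNA replication genes, 6 were lower in EPC_Late and none higher in the limma fit. That is 54.5% called against 20.9% of all probes tested. The median difference was -0.72, with a range of -1.15 to -0.23 for that median over the alternatives. Over the 10 above background on all 4 arrays, 5 were lower and none higher, with a median of -0.57. Ccnd3, whose value is the median of all 11, entered through EPC_acLDL, which fixed its direction. E2f1, a transcription factor that opens the S phase, read 12609 and 12106 in EPC_acLDL, 4549 and 4395 in EPC_Late and 9435 and 8821 in EPC. Its difference was -1.34 (SE 0.11, n = 2 arrays per line, limma adjusted p = 0.0008). Tyms, thymidylate synthase, read 1862 and 2033 in EPC_acLDL, 871 and 942 in EPC_Late and 1529.75 and 1553 in EPC, a difference of -1.38 (SE 0.12). The EPC_Late arrays were the dimmest of the 6 for both genes.

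Cdc45, part of the helicase that unwinds DNA at replication forks, differed by -1.20 (SE 0.12), and Nasp, a histone chaperone, by -1.15 (SE 0.12). Birc5 (survivin), which acts in chromosome segregation, differed by -0.88 (SE 0.14), and Ccnd3, cyclin D3, by -0.72 (SE 0.13). Ccnd3 was not above background on either EPC_Late array and was at least 1.37-fold lower. Its call was lost without either EPC_acLDL array or the second EPC_Late array, and that of Birc5 without the first EPC_acLDL array. The other 5 probes of the list lay between -0.26 and 0.30. TTTNGCGC, an E2F site, was in 1.38% of all windows and in none of the 6 called genes of this list, nor in those of the other lists.

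Of 9 probes in the list of p53 and senescence genes, 3 were higher and 1 lower, 44.4% called against 20.9% of all probes tested. Over the 6 above background on all 4 arrays, 2 were higher and none lower. Btg1, an antiproliferative gene, read 1644 and 1871 in EPC_acLDL and 5141 and 5009 in EPC_Late, a difference of 1.96 (SE 0.14). Igfbp2, which binds insulin-like growth factors, rose by 1.32 (SE 0.17), and Bbc3 (PUMA), a promoter of apoptosis, rose at least 1.35-fold on a probe that neither EPC_acLDL array had above background. That call was lost without either EPC_acLDL array or the second EPC_Late array. The other Bbc3 probe gave 0.29 (SE 0.15) and was not called. Trp53inp1 was the lower probe, at -0.43 (SE 0.12), and its call was lost under 13 of 15 alternatives, each left-out array among them.

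**Figure D3:**
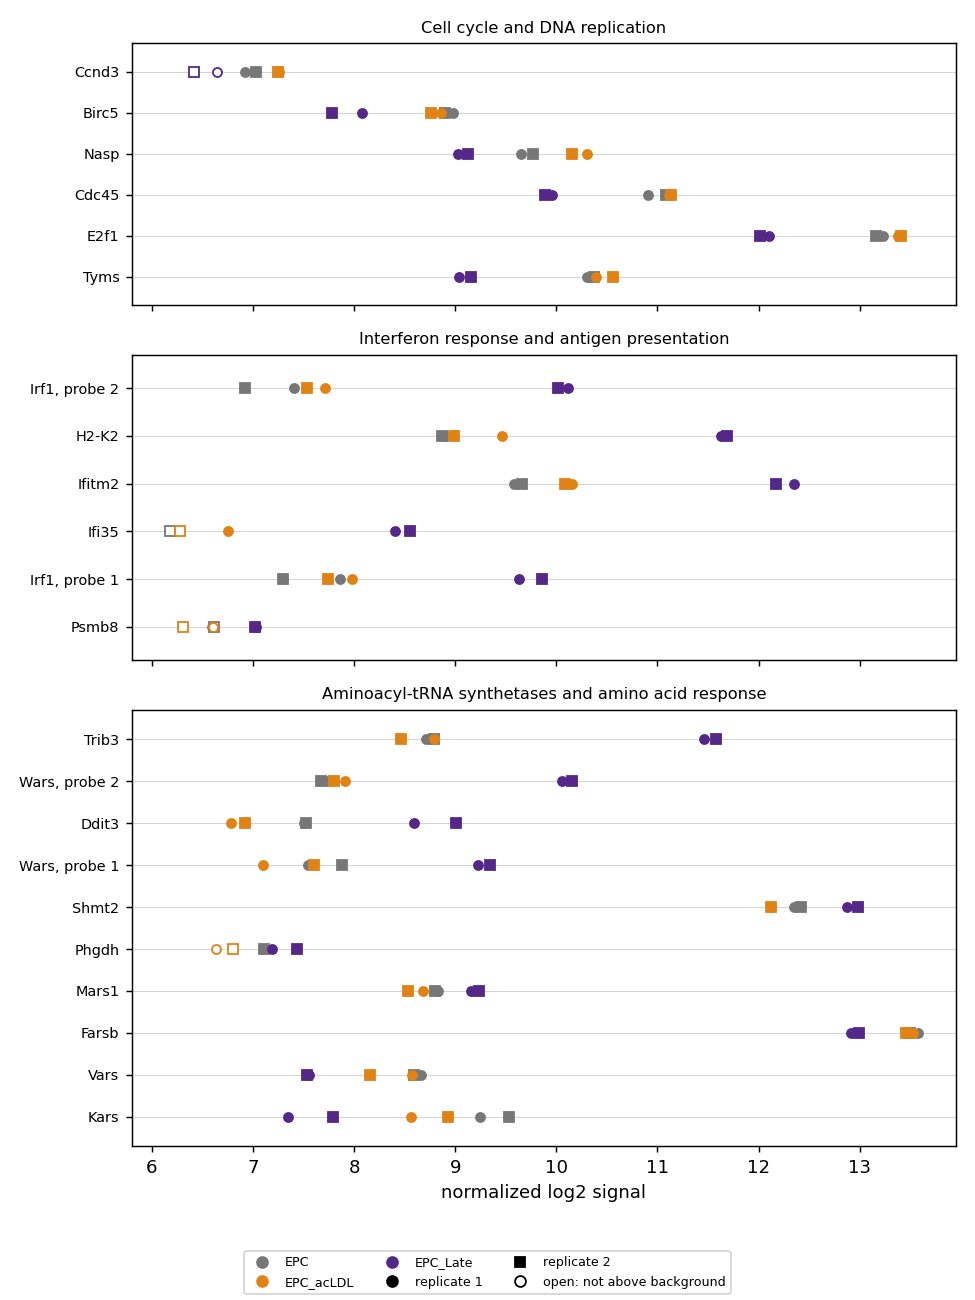
Normalized log2 signal (horizontal) of all 6 arrays for the called probes of the cell cycle, interferon and amino acid lists, with EPC in grey, EPC_acLDL in orange and EPC_Late in purple. Open points were not above background, circles are replicate 1 and squares replicate 2. The EPC_Late points lie left of the others in every row of the first panel and right of them in every row of the second.

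The list with the most calls was that of splicing and RNA-binding factors, proteins that bind nascent transcripts, choose splice sites and carry messenger RNA. Of its 69 probes, from 50 genes, 38 were lower and 4 higher in EPC_Late, which is 60.9% called against 20.9% of all probes tested, with a median of -0.60. The count of lower probes was 20 and 24 without the first and the second EPC_acLDL array, 24 and 27 without the first and the second EPC_Late array, and up to 47 over all alternatives, and the median lay between -0.83 and -0.32. Over the 58 above background on all 4 arrays, 37 were lower and 3 higher, with a median of -0.62.

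Srrt (ARS2), which links the cap of new transcripts to their processing, read 2886 and 2472 in EPC_acLDL and 823 and 889 in EPC_Late on one probe, and 6779 and 6664 against 2084 and 2158 on the other. The differences were -2.07 (SE 0.14, n = 2 arrays per line, limma adjusted p = 0.00054) and -1.64 (SE 0.11, adjusted p = 0.00051). Syncrip, an RNA-binding protein of transport granules, was lower on all 3 of its probes, by differences of -2.04 (SE 0.18), -1.29 (SE 0.12) and -1.19 (SE 0.13). Srsf1, a serine and arginine rich splicing factor, read 38034 and 34249.5 in EPC_acLDL, 11114 and 11582 in EPC_Late and 29619.7 and 29574 in EPC on its brighter probe, with differences of -1.35 (SE 0.11) and -1.49 (SE 0.11) on its probes. Every probe of these 3 genes was lower on both EPC_Late arrays than on both EPC_acLDL arrays.

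Further members, named after their values were seen, were Srsf2, with -1.17 (SE 0.12) and -0.75 (SE 0.12), Hnrnpab, with -1.11 (SE 0.12), Hnrnpa1, with -1.05 (SE 0.13), and Serbp1, with -1.22 (SE 0.19). Serbp1 lost its call without the first EPC_acLDL array and Srsf2, at -0.75, without the second. Hnrnph1, a binder of G-rich RNA, was lower on 4 of 4 probes, by differences from -0.58 to -0.69. Celf1, a regulator of splicing and decay, was lower on 3 of 4 probes, and the remaining one, at -0.86 (SE 0.25), was not called. That probe was called lower under 7 alternatives, among them each scaling that replaced quantile normalization, and lay between -1.20 and -0.52 over the left-out arrays. The Hnrnph1 calls were each lost without at least 3 of the 4 arrays in turn, and 2 of the 3 Celf1 calls without either EPC_acLDL array or the first EPC_Late array. U2af2, which recognises the polypyrimidine tract before the splice acceptor, was lower on 1 probe, at -1.13 (SE 0.11), and gave -0.17 (SE 0.14) on the other.

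The 4 higher probes were those of Ybx3, a cold shock domain protein, at 0.94 (SE 0.12) and 0.70 (SE 0.12), of Thoc6, of the messenger RNA export complex, and of Pcbp2, a poly(C) binder, at 0.45 (SE 0.11). Ybx3 read 433 and 472 in EPC, 625 and 690.01 in EPC_acLDL and 898 and 944 in EPC_Late on its first probe, 3 levels that did not overlap. The Ybx3 probe at 0.70 lost its call without the second EPC_acLDL or the first EPC_Late array. Thoc6 was above background on neither EPC_acLDL array, at least 1.26-fold higher in EPC_Late, and its call was lost without the first EPC_acLDL or the second EPC_Late array. Pcbp2 lost its call without any 1 of the 6 arrays and under every scaling that replaced quantile normalization.

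**Figure D4:**
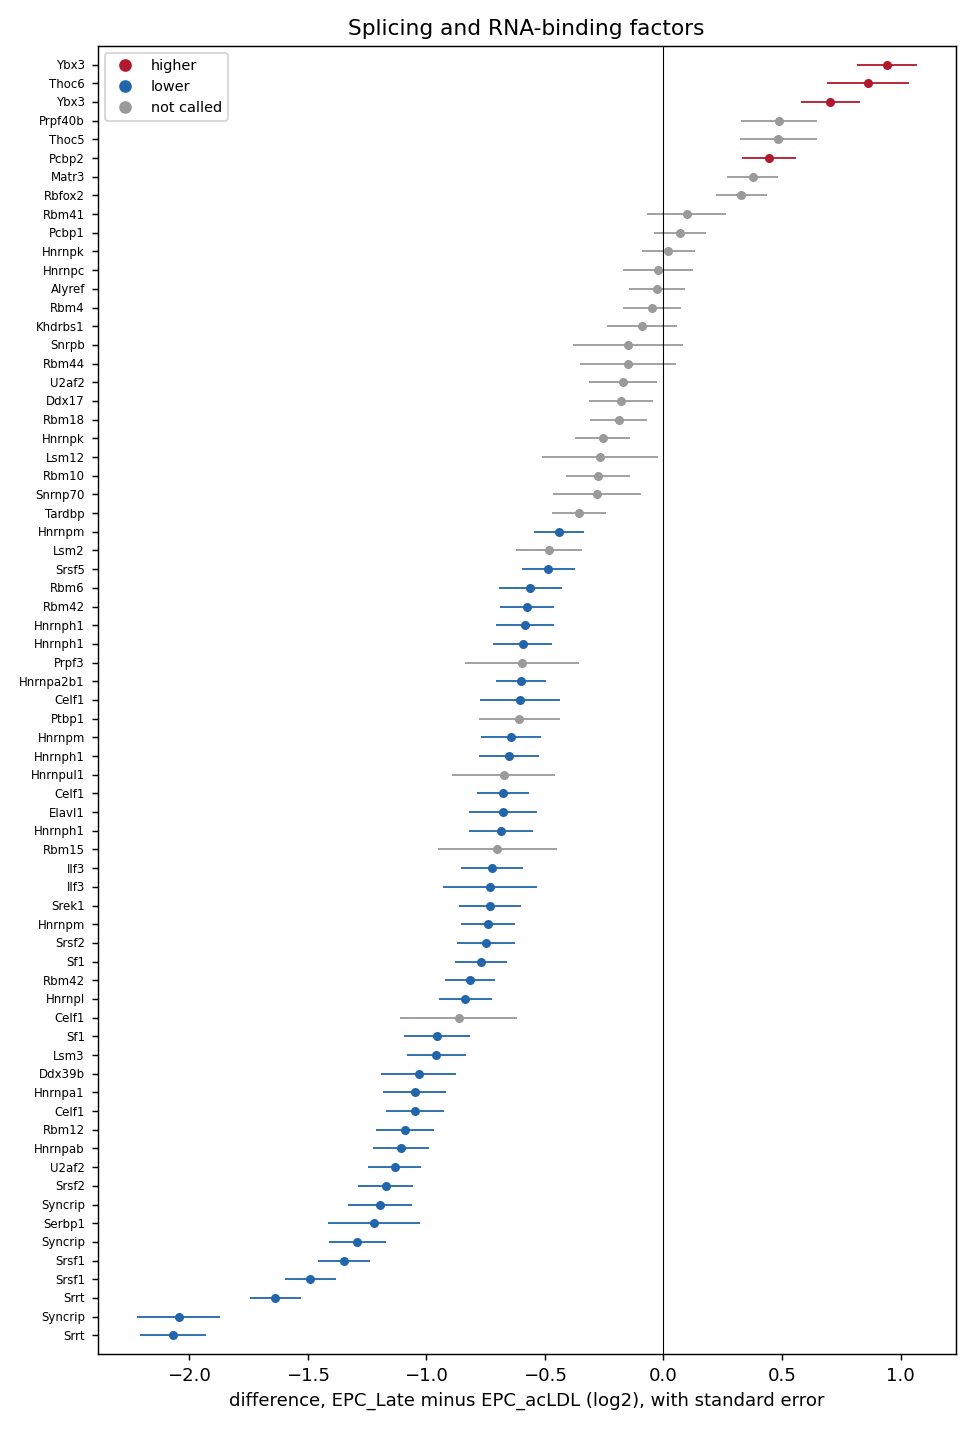
Difference between EPC_Late and EPC_acLDL (horizontal, log2) with its standard error for the 69 probes of splicing and RNA-binding factors, 1 row per probe. Blue points are the 38 probes called lower, red points the 4 called higher and grey points were not called.

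Translation factors moved both ways. Elongation factors bring aminoacyl-tRNA to the ribosome and move it along, and initiation factors place the ribosome at the start codon. Of 28 probes, 9 were higher and 7 lower, 57.1% called against 20.9% of all probes tested, with a median of 0.06. The counts were 6 and 4 without the first EPC_acLDL array, and 5 and 4 without the second. The balance turned under the other scalings, to 6 higher against 8, 8 and 10 lower. Over the 23 above background on all 4 arrays, 8 were higher and 6 lower. The higher probes were mainly of elongation factors: Eef1a2 on 3 of 3 probes, at 1.52 (SE 0.11) and 1.17 (SE 0.12) on those above background in both lines and at least 1.49-fold on the other, Eef2 on 2 of 3, at 0.81 (SE 0.11) and 0.76 (SE 0.12), and Eef1a1 on 2 of 2, at 0.56 (SE 0.12) and 0.43 (SE 0.11). Eef1akmt1, a methyltransferase of that factor named N6AMT2 in the file, rose by 1.02 (SE 0.12), and the initiation helicase Eif4a2 rose by 0.85 (SE 0.14). Eef1a1 and Eif4a2 lost their calls under each scaling that replaced quantile normalization and without either EPC_acLDL array, and the Eef2 probe at 0.76 without the second.

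On its brightest probe Eef1a2 read 1896 and 1825 in EPC, 1941 and 1829 in EPC_acLDL and 4321 and 3992 in EPC_Late. The lower probes were of Eif5a, at -1.11 (SE 0.15), Eif3b, with 2956 and 2709 in EPC_acLDL and 1450.2 and 1369 in EPC_Late, Eif4a1, at -0.99 (SE 0.22), Eif3g, at -0.79 (SE 0.12), Eif4g1, at -0.67 (SE 0.11), and Eif4g2, at -0.78 (SE 0.12) and -0.63 (SE 0.15). The Eif4g1 call was lost without either EPC_acLDL array and the Eif4g2 call at -0.63 without either of these or the second EPC_Late array. Eif5a read 1698 and 1769.6 in EPC, 3199 and 2703 in EPC_acLDL and 1508 and 1292 in EPC_Late, so that EPC_acLDL was the highest line. Of 27 probes of cytosolic ribosomal proteins, 2 were higher (Rps2, at 0.85, and Rps7, at 0.62) and 2 lower (Rpl23, at -0.94 on 1 of 2 probes, and Rpl38, at least 1.25-fold), a share of 14.8%. Up to 7 ribosomal probes were higher under other settings, and 1 was higher and 1 lower of the 24 above background on all 4 arrays. All 4 of these calls, and that of Eif4a1, were lost without either EPC_acLDL array.

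Of 30 probes in the list of actin dynamics and tubulins, 9 were lower and 2 higher, with a median of -0.08. That is 36.7% called against 20.9% of all probes tested. Over the 27 above background on all 4 arrays, 8 were lower and 2 higher. Tuba3a, an alpha tubulin, read 1539 and 1410.1 in EPC_acLDL and 598 and 652 in EPC_Late, a difference of -1.92 (SE 0.13). Tubb1 differed by -1.72 (SE 0.23), Tubb4b by -1.43 (SE 0.13) and Tuba1a by -1.35 (SE 0.16). Tubg1, the tubulin that nucleates microtubules, differed by -1.29 (SE 0.25), a call lost without the second EPC_acLDL or the first EPC_Late array, and Pfn1, an actin monomer binder, by -1.04 (SE 0.12). Tubb1 was above background on 1 of the 2 EPC_Late arrays. Tubulin and actin genes are near copies of each other, and probes named for one may read another.

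Probes named for the same gene disagreed in this list. Tubb2b, a beta tubulin, was higher on one probe, at 1.02 (SE 0.12), and lower on the other, at -1.15 (SE 0.13). Actb differed by -1.26 on 2 probes (SE 0.13 and 0.15) while its remaining probe was not called (SE 0.11) and read 68151 to 69989.7 on the 4 arrays, close to the highest intensity in the file, 71993. The other higher probe was 1 of 3 for Pfn2, the relative of Pfn1, at 0.56 (SE 0.12), while the others gave 0.29 (SE 0.16) and -0.19 (SE 0.21) and were not called. The called probe turned to -0.02 where values were floored at 1 and then shifted to the 75th percentile; the call was also lost without any 1 array of the 2 lines. Over the whole comparison, 177 genes had several included probes: in 34 all were called the same way, in 50 some were called, in 91 none was and in 2 they were called in opposite directions.

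Contractile genes had 4 lower and 1 higher of 10 probes, but 1 lower without either EPC_acLDL array or the second EPC_Late array and 2 without the first EPC_Late array. With all arrays the share called was 50%, against 20.9% of all probes tested. Tpm3, a tropomyosin, differed by -0.65 (SE 0.13), and the alpha-actinins Actn4, at -0.81 (SE 0.11) and -0.62 (SE 0.11), and Actn1, at -0.57 (SE 0.11), were also lower. Of these, the Actn4 probe at -0.81 alone kept its call without any 1 array. Mylk, the kinase of myosin light chain, was higher by 0.51 (SE 0.12), at 770 and 812 in EPC_acLDL and 904 and 983 in EPC_Late, below the 1517 and 1572 of EPC. Its call was lost under each scaling that replaced quantile normalization and without any 1 array of EPC_Late or EPC_acLDL. Tpm2, another tropomyosin, differed by 0.33 (SE 0.22) and was not called.

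Lmna, which encodes the A-type lamins under the nuclear envelope, was lower on both probes. It read 16770.0 and 15288 in EPC_acLDL and 6704 and 6436 in EPC_Late on the brighter probe, a difference of -1.11 (SE 0.11, limma adjusted p = 0.0013), and 957 and 967 against 414 and 528 on the other, a difference of -2.29 (SE 0.32) with 1 EPC_Late array above background. Banf1, which bridges chromatin and the envelope, differed by -0.51 (SE 0.12), a call lost without any 1 array of the 2 lines. These were the 3 lower of 8 probes in the list of the nuclear lamina and envelope, and none was higher, 37.5% called against 20.9% of all probes tested. Over the 7 above background on all 4 arrays, 2 were lower. Of 25 histone and high mobility group probes, 28% were called against 20.9% of all probes tested. The balance turned with the scaling, from 5 higher and 2 lower to 2 and 4 with the 75th percentile shift and with no normalization and to 1 and 4 with the floor of 1. Over the 21 above background on all 4 arrays, 4 were higher and none lower. The lower ones were H2ac12 at -0.68 (SE 0.12) and 1 of the 2 Hmga1 probes, at least 1.55-fold. The higher ones were H2ac20, H2ac23, H2bc12, H2bc14 and H2bc11, genes of replication-dependent histones, whose sequences are nearly alike. The largest of these was H2ac20, at 0.85 (SE 0.13), the smallest H2bc11, at 0.52 (SE 0.14), and all 7 calls were lost without the first EPC_acLDL array.

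Of 43 probes of the proteasome and ubiquitin list, 10 were lower and 2 higher, a share called of 27.9% against 20.9% of all probes tested, with a median of -0.07. The count of lower probes fell to 1 and 2 without the first and the second EPC_acLDL array and to 3 and 4 without the first and the second EPC_Late array, and it was 5 without a detection filter. It rose to 16, 18 and 16, with none higher, under the 3 other scalings, and was 14 or 15 under both other background settings, at a detection p below 0.01 and with trend and robust variances. Over the 35 above background on all 4 arrays, 9 were lower and 1 higher. Vcp, a segregase that extracts ubiquitinated proteins, read 5783 and 5814 in EPC_acLDL and 2194 and 2489 in EPC_Late, a difference of -1.26 (SE 0.11). Psmd11, a lid subunit of the proteasome, was above background on neither EPC_Late array and at least 1.90-fold lower. Its call was lost without any 1 array of the 2 lines. Psmb2 and Psmb6, subunits of the catalytic core, differed by -0.72 (SE 0.11) and -0.61 (SE 0.13), and a second Psmb2 probe, at -0.55 (SE 0.23), was not called. The Psmb2 call was lost without the first EPC_acLDL array and the Psmb6 call without either EPC_acLDL array or the second EPC_Late array. One of the higher probes was that of Psmb8, counted above.

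Chaperones had 2 higher and 2 lower of 17 probes, a share of 23.5% that is near the 20.9% of all probes tested. The count of higher probes was 5 under both other background settings, at a detection p below 0.01 and with trend and robust variances. Dnajc15, a co-chaperone of the mitochondrial inner membrane, read 341 and 382 in EPC, 611 and 604 in EPC_acLDL and 1333 and 1489 in EPC_Late, so that the 3 lines did not overlap, and EPC_Late exceeded EPC_acLDL by 2.20 (SE 0.13). Pdia5, a disulfide isomerase, was higher by 1.08 (SE 0.14). Tcp1, a subunit of the chaperonin that folds tubulin and actin, differed by -1.63 (SE 0.22), with 766 and 820.5 in EPC_acLDL and 467 and 509 in EPC_Late, and Hspd1, the mitochondrial chaperonin, by -0.83 (SE 0.12).

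Of 15 probes for the mitochondrial ribosome and protein import, 5 were lower and none higher, 33.3% called against 20.9% of all probes tested. Over the 10 above background on all 4 arrays, 4 were lower. Hspd1, which both lists hold, was among the 5. The others were Timm10b, at least 1.21-fold lower, Mrpl42, at -0.94 (SE 0.19), Vdac3, the outer membrane channel, at -0.88 (SE 0.11), and Mrps22, at -0.60 (SE 0.12). Without either EPC_acLDL array or the first EPC_Late array Mrpl42 and Mrps22 lost their calls, and the count of lower probes was 3 without the first array of either line. None of 16 probes for subunits of oxidative phosphorylation was called by limma, 2 had an unadjusted p below 0.05, and up to 6 were lower under other settings. The brightest of them, Atp5g3 and Cox6b1, differed by -0.11 (SE 0.11) and 0.11 (SE 0.11), and Cox6b1 turned to between -0.48 and -0.39 under the scalings that replaced quantile normalization.

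Secretory and lysosomal genes had 6 higher and 1 lower of 25 probes, a share of 28% against 20.9% of all probes tested. All of these calls were among the 22 probes above background on all 4 arrays. The balance did not hold under other settings: it was 3 and 2 with the 75th percentile shift and with no normalization, 3 and 4 with the floor of 1, and 2 and 0 without either EPC_acLDL array. Copz2, a coat subunit of vesicles between the Golgi and the endoplasmic reticulum, was higher by 1.48 (SE 0.13) on one probe and differed by -0.11 (SE 0.11) on the other. Ctsa, a lysosomal carboxypeptidase, was higher by 1.26 (SE 0.12), Cope, another coat subunit, on 3 of 3 probes by 0.52 to 0.70, and Lamp2, a lysosomal membrane protein, by 0.52 (SE 0.13). The Lamp2 call and those of 2 Cope probes were lost under each scaling that replaced quantile normalization and without any 1 array of the 2 lines, and the Cope probe at 0.70 lost its call without either EPC_acLDL array. The lower probe was 1 of 2 for Atp6v0d1, a proton pump subunit, at -0.65 (SE 0.12), and the other, at -0.59 (SE 0.18), was called under 8 alternatives. The call of the first was lost without either EPC_acLDL array or the second EPC_Late array.

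Matrix genes above background were few, 5 probes in all and 4 of them above background on all 4 arrays. The share called was 40%, against 20.9% of all probes tested. Of 5 probes, 2 were higher: Lamb2, a laminin chain of basement membranes, with 2015 and 1818 in EPC_acLDL and 4093 and 4035 in EPC_Late, a difference of 1.45 (SE 0.12), and Sparc, a collagen-binding matrix protein, with 3086 and 2869.6 against 6440.1 and 6123, a difference of 1.37 (SE 0.12). The EPC arrays were lower still for Sparc, at 1949 and 1702.

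Sox2, a transcription factor of stem cells, read 1098 and 1126 in EPC, 4077 and 3913 in EPC_acLDL and 5641 and 5457 in EPC_Late, and the last lines differed by 0.66 (SE 0.11, n = 2 arrays per line, limma adjusted p = 0.0095). For Sox2 too, this order by the labels is the reverse of the one the study gives. In size, though, the intensity ratios of EPC_acLDL and EPC_Late to EPC lie near the folds that the study gives as decreases. Whether labels were exchanged was not tested. The second Sox2 probe on the array was not above background, and the call was lost without either EPC_acLDL array or without the first EPC_Late array. Pou5f1 (Oct4) differed by -0.11 (SE 0.15) on its probe above background, with 638 and 627 in EPC_acLDL and 583 and 627 in EPC_Late. Prom1 (CD133) read 424 and 467 in EPC_acLDL, just under the detection threshold, and 468 and 498 in EPC_Late, a difference of 0.27 (SE 0.13) that was not called.

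Markers of particular cell types gave few calls. Kdr read 579.9 and 609 in EPC_acLDL and 604 and 585 in EPC_Late, a difference of 0.02 (SE 0.13) whose sign changed under 4 alternatives, and Cd93, another endothelial gene, differed by -0.31 (SE 0.17). The summed level of all 32 endothelial probes was 1561 to 1585 in EPC_acLDL and 1421 to 1520.0 in EPC_Late on the background-corrected linear scale, and 30 of the 32 were above background on none of the 4 arrays, so the sum is mostly background. The sum of 26 haematopoietic probes, 23 of them likewise, was 1325 to 1377 and 1188 to 1222, and that of 24 probes for lipoprotein receptors, 22 of them likewise, 1397 to 1609 and 1216 to 1220. Other sums went the other way, 1294 to 1300 and 1323 to 1366 for smooth muscle and 4655 to 4898 and 6146 to 6327 for stem cell genes. The fibroblast and epithelial sums overlapped between the lines. Of the haematopoietic markers, Csf1r differed by 0.06 (SE 0.15) and Coro1a by -0.89 (SE 0.26), and neither was called. This Coro1a probe entered through EPC_acLDL, with 1 EPC_Late array not above background, which fixed its direction. The other Coro1a probes were above background on no array. Coro1a was called lower under 8 alternatives, among them each scaling that replaced quantile normalization, at -1.03, -1.04 and -0.37, and without the second EPC_Late array, at -1.20. The fibroblast marker Prrx1 was higher on 1 of 2 probes, at 0.63 (SE 0.16), a call lost under 10 of 15 alternatives, among them each scaling that replaced quantile normalization and every left-out array except the first of EPC_Late. The called Prrx1 probe entered through EPC_Late, with 1 EPC_acLDL array not above background, which fixed its direction. The other fibroblast markers above background were Twist1, at -0.34 (SE 0.13), with both EPC_Late arrays below both EPC_acLDL arrays, and Col1a2, at 0.16 (SE 0.12), and neither was called. Of the 3 fibroblast probes above background on all 4 arrays, none was called. Of the smooth muscle markers, Acta2 differed by -0.22 (SE 0.14) and Des by -0.02 (SE 0.13), and Mylk is given above. The epithelial markers Cldn7, at 0.90 (SE 0.37), and Cdh1, at -0.25 (SE 0.20), were not called. Cldn7 was called higher with trend and robust variances and without the second EPC_Late array, at 1.46, and lay between 0.35 and 1.46 over the left-out arrays. Whether other cells in the cultures had a part in these differences was not tested.

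Genes of lipoprotein uptake were mostly not above background: 16 of 17 genes for lipoprotein and scavenger receptors were above background on none of the 4 arrays. Lrp8, a receptor of the low density lipoprotein family, was lower in EPC_Late on 1 of 2 probes, at -0.57 (SE 0.12), and the other gave -0.34 (SE 0.23). The call was lost without either EPC_acLDL array or the second EPC_Late array, with differences of -0.67 to -0.47 over all left-out arrays. Cyp51, an enzyme of cholesterol synthesis, read 684 and 709.7 in EPC, 1121 and 1163 in EPC_acLDL and 825 and 877 in EPC_Late, a difference of -0.56 (SE 0.11), and was the single call among 7 probes for cholesterol and fatty acid synthesis. This call was lost without either EPC_acLDL array or the first EPC_Late array, with differences of -0.62 to -0.51.

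The remaining lists had at most 3 calls each, and those of Hdgf, Pfkp, Prdx2, Txnl4a, Slc25a1 and Slc39a7 were each lost without any 1 of the 4 EPC_Late and EPC_acLDL arrays. The calls of Pfkp, Prdx2 and Slc25a1 were also lost under each scaling that replaced quantile normalization. Of 9 probes for angiogenic and growth factor ligands, 1 of 3 for Hdgf was lower, at -0.47 (SE 0.11). Among 6 glycolysis probes, 1 of 2 for Pfkp was higher, at 0.51 (SE 0.12). The antioxidant list had Prdx2, a peroxiredoxin, higher by 0.61 (SE 0.12) and Txnl4a lower at -0.61 (SE 0.14), which despite its name is a protein of the spliceosome. Slc25a1, the mitochondrial citrate carrier, was the other higher solute carrier, at 0.43 (SE 0.11), and Slc39a7, a zinc transporter, the lower one, at least 1.14-fold. None of 7 probes for annexins, S100 proteins and galectins was called by limma and 1 had an unadjusted p below 0.05, with Anxa3 at 0.35 (SE 0.12) and S100a11 at -0.24 (SE 0.13). Anxa3 was called higher at a detection p below 0.01, and S100a11 was called lower under each scaling that replaced quantile normalization, at -0.51 to -0.49.

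**Figure D5:**
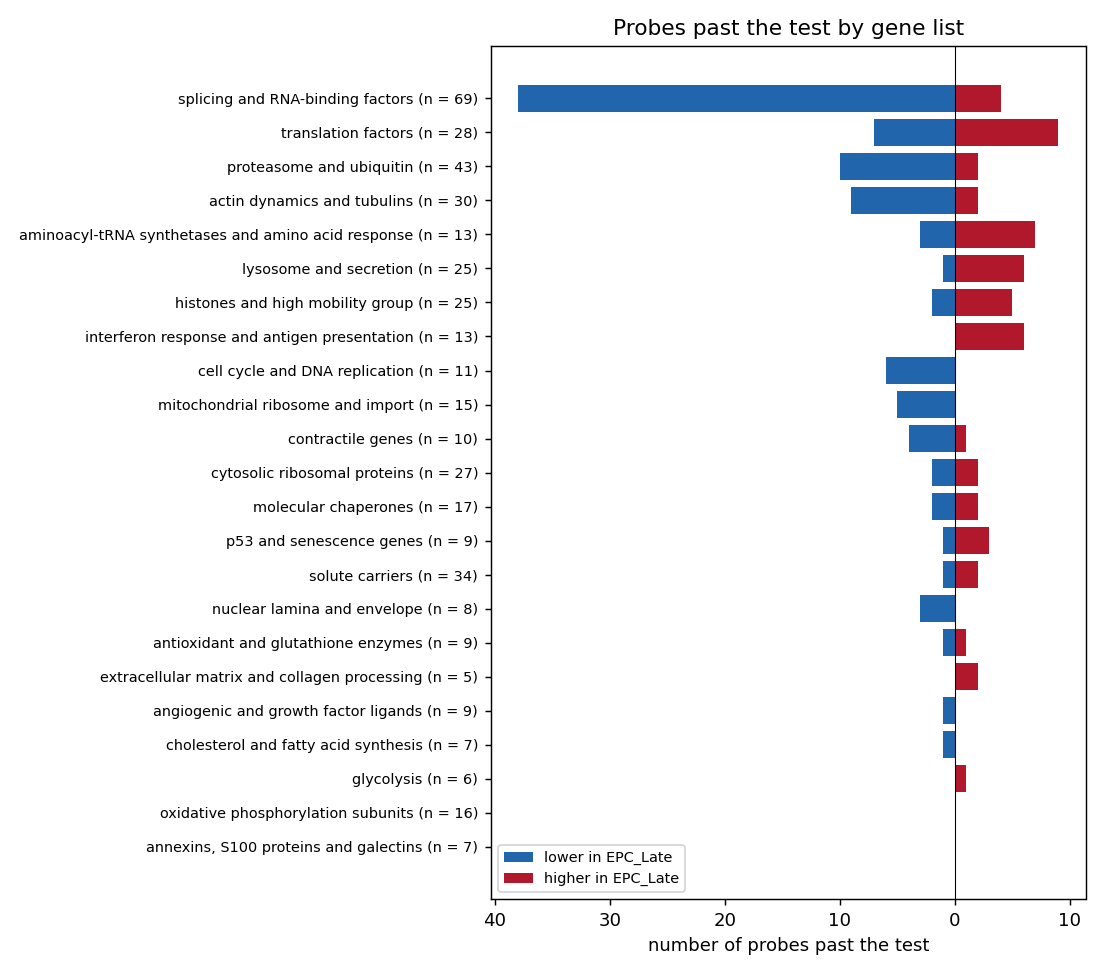
Number of probes past the limma test (horizontal) for each list with at least 5 included probes (n in brackets), lower in EPC_Late to the left in blue and higher to the right in red. Splicing and RNA-binding factors have 38 lower probes, and the interferon list has 6 higher and none lower.

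Of the 2264 probes, 450 fell in at least 1 of the 31 lists and 154 of these were called. The other 1814 fell in none, and 329 of them were called.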

How the data were processed

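RNA from 3 lines was measured on MouseRef-8 v2.0 arrays, 2 for each line and 6 in all, on 1 chip. Per the methods, the authors summarized the beads with BeadStudio, which applied local background correction by default, without normalizing. They deposited a linear intensity for every probe and array together with a detection p-value. All value columns were used (0 left out), and the number of arrays limits the precision.

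For the present comparison, R 4.3.3 and limma 3.58.1 were used. The function neqc took the background from the detection p-values, added an offset of 16, quantile normalized and took log2. Probes detected on both arrays of any line (2333) entered lmFit and eBayes with no covariate, 6 arrays in 1 fit, and p-values were adjusted over them by Benjamini-Hochberg. Symbols were updated through a RefSeq table of GRCm38.p6. Among the 2264 included probes 1821 names were current symbols, 344 were synonyms and 99 stayed as in the file.

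The probes, gene lists, tests and the rule for named genes were chosen with earlier results of these data known. The rule named Sox2, Pou5f1, Prom1, Pecam1, Kdr, Cdh5, Cd34 and Ptprc, the 12 largest differences in each direction among probes above background on all 4 arrays, the 6 largest bounds in each direction, and up to 4 called probes in each list, or up to 2 of the brightest where none was called. Every other gene was named after its values were seen. Some genes that these rules name are not reported here.

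The steps were tested on simulated intensities of this comparison with 200 probes changed, under 2 models of background noise. Where noise was independent between arrays, 2498 probes were tested, 170 of 200 changed probes were recovered (85%) with the right sign, and 66 of 236 calls (28%) were false. Where noise was partly shared by a probe across arrays, 3484 were tested, 174 of 197 were recovered (88.3%) with the right sign, and 20 of 194 calls (10.3%) were false. The second model was added after the first result was seen. Both shares of false calls exceed the 5% at which the adjustment aims. The simulations differed from the data, in which 2333 probes were tested and 483 included probes were called. The share of false calls among those 483 is therefore not known.

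Alternatives were other background corrections, scalings and detection filters, the 4 arrays alone, the replicate number as a block, trend and robust variances, the methods' t-test, and leaving out each array.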

Additional observations from a re-analysis of the deposited data

How the results depend on the processing

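The 483 calls became 0 with the methods' t-test once its p-values were adjusted by Benjamini-Hochberg (563 unadjusted, with 2 probes of zero spread), where limma had 734 unadjusted. Leaving out 1 array gave 203 to 455 calls. The 172 probes at least 2-fold apart became 97 with an offset of 50, 79 where values were floored at 1 and shifted to the 75th percentile, and 55 when the background was not corrected. The other settings stayed within 1.5 times of both counts, from 366 calls without a detection filter to 624 with trend and robust variances. No probe called in both changed sign. A detection p below 0.01 tested 1226 of the included probes.

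The arrays of a number do not share a source in the labels, and their deviations from the line means correlated by 0.0794, 0.0211 and 0.0317 between lines. The replicate block gave 454 calls.

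Of the probes named here, a sign turned for these. Under the shift to the 75th percentile, no normalization and the floor of 1 with that shift, Cox6b1 gave -0.3883, -0.3985 and -0.4839, the uncalled Prrx1 probe -0.0365, -0.0467 and -0.0504, Csf1r -0.0709, -0.0811 and -0.0706, and Kdr -0.1309, -0.1411 and -0.096. Under that floor the Pfn2 probes gave -0.0162 and -0.0381 and Col1a2 -0.032, and with no normalization Col1a2 gave -0.0011. Leaving out 1 array gave -0.1573 to 0.3441 for Prrx1, -0.1157 to 0.2429 for Csf1r, -0.0862 to 0.1321 for Kdr, -0.0227 to 0.0173 for the brightest Actb probe, -0.1087 to 0.0723 for Des, and -0.106 to 0.0123 for the uncalled Hmga1 probe. It gave -0.2781 to 0.1592 for an uncalled Slc38a2 probe and -0.4899 to 0.0098 for the uncalled Rpl23 probe. Of these, the brighter Pfn2 probe alone was called. A further 7 genes were left out of the text after their values were seen, partly for such turns: 4 of their 7 probes turned sign and none was called. The causes were not tested. Counts per list moved by over 1.5 times in 294 of the list-by-setting values.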
